A study of Rattus norvegicus with 26 samples.

Results

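The thoracic spinal cord of rats that had been given mesenchymal stem cells from human umbilical cord (hUC-MSCs) 2 weeks earlier (+MSC-2w, 3 libraries) was compared with the cord of uninjured rats (Intact, 4 libraries). The genes compared were those that passed a filter on low counts, 17990 of the 32883 genes in the count table, measured in 7 of the 26 RNA sequencing libraries of the series. All rats were wild type Sprague-Dawley females with the same label for age, postnatal day 70, which does not say whether it is the age at injury or at tissue collection. In the +MSC-2w rats the cord had been compressed at T10 with a 60 g clip for 1 min, hUC-MSCs had been given intrathecally 7 days after the injury, and 5 mm of cord was collected 2 weeks after that. The methods add a laminectomy and daily cyclosporin A for the injured rats. The Intact rats carry the label untreated and are described as intact or sham, and whether any of them had surgery or the drug is not given in the sources used here. Injury, surgery, elapsed time, immunosuppression and grafted cells therefore cannot be told apart in this contrast. Vehicle-injected rats at the same time point (+PBS-2w, 2 libraries) and rats collected on the day of transplantation (sub-SCI, 3 libraries) carry the same injury, and +PBS-2w differs from +MSC-2w by the graft according to the labels. The methods give +MSC-2w fewer libraries than the labels do, and they do not single out +PBS-2w, which the labels make the smallest group. The study's results text counts 3 +MSC-2w samples, as the labels do. The labels were followed, and which library belongs to which group was not tested, so each +MSC-2w and +PBS-2w value rests on the labels.

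A crushed cord loses neurons and oligodendrocytes at the lesion, and microglia and infiltrating macrophages take up the debris, much of it cholesterol-rich myelin. Astrocytes around the lesion become reactive and form a border. These cell types are read here from bulk tissue, in which a change in the number of cells of a type and a change in RNA per cell cannot be told apart.

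Markers of spinal cord tissue, among them the myelin gene Mbp, the neuron gene Snap25, the astrocyte gene Gfap and the thoracic gene Hoxc8, were present in all 7 libraries. Total counts were 19496602 to 26813098 in Intact and 19662677 to 24381819 in +MSC-2w. Levels are given as counts per 1000000 (CPM) after scaling, in the order of the replicate numbers, and a gene was called higher or lower when the log2 fold change exceeded 1 in size with an adjusted p under 0.01 in edgeR's quasi-likelihood test. The methods speak of biological replicates and repeats, and neither they nor the labels tie a library to a rat. The p-values therefore measure spread between libraries within groups, estimated over all 26 libraries of the series and not these 7 alone. Replicates 2 and 3 of +MSC-2w were the closest of the 31 within-group pairs of libraries in the series, with an SD of 0.21 for the log2 ratio of their counts across genes, against 0.35 to 1.08 in the other pairs. They differed by more than counting noise, with 33.5% of genes past the point that counting alone would pass in 5%. This comparison cannot tell 2 rats from 2 preparations of 1 rat, and they were counted as separate libraries because the labels list them so. With these 2 libraries summed into 1, 821 genes were called higher and 31 lower. Replicate 1 of +MSC-2w stood apart from that pair, with summed phagocytic genes at 15949 CPM against 22494 and 23291 CPM and summed neuron markers at 13241 CPM against 9044 and 9227 CPM. Among the Intact libraries, replicate 1 was low in Schwann cell genes, at 195 CPM against 878 to 1743 CPM, and replicate 4 was high in skeletal muscle genes, at 379 CPM against 10.1 to 14.7 CPM. The part of these differences in the results below was not tested.

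In +MSC-2w, 1007 genes were higher than in Intact (5.6% of those tested) and 83 were lower (0.461%), so that 92.4% of the 1090 called genes (6.06%) were higher. The median log2 fold change was 1.87 among genes called higher and -1.46 among genes called lower, beside -0.03 over all genes. A log2 difference above 3 was reached by 128 higher genes and 2 lower genes. Of the 1007 higher genes, 997 had all +MSC-2w libraries above all Intact libraries, and all 83 lower genes had them below, where 18.8% and 21.3% of all genes were separated in these ways. At an unadjusted p under 0.05 the split was nearer to even, with 3241 genes higher and 2607 lower. The number of lower genes depended on the libraries used, being 53 without Intact replicate 3, 134 without +MSC-2w replicate 1, 39 without +MSC-2w replicate 2 and 34 without +MSC-2w replicate 3. The share of higher calls was 82.4% in DESeq2 fitted to these 2 groups alone.

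**Figure D1:**
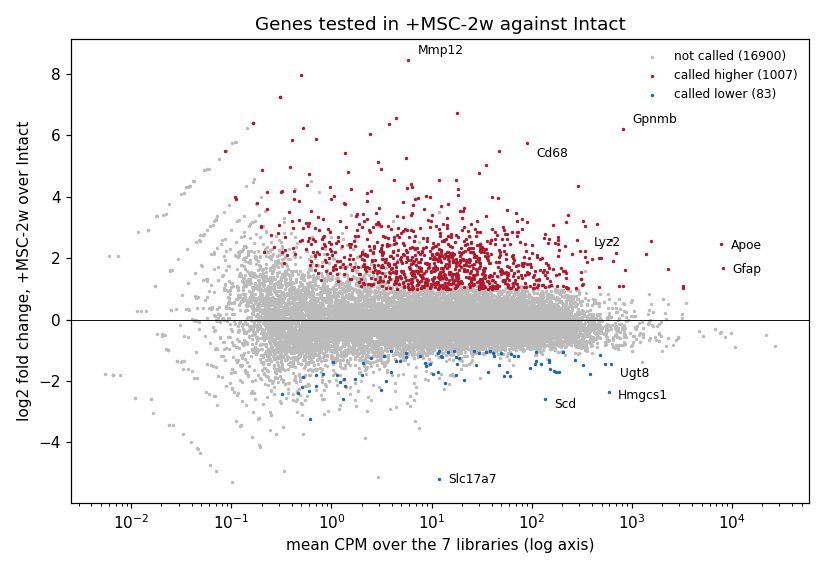
Each point is a gene, with its mean CPM over the 7 libraries on a log axis and its log2 fold change, +MSC-2w over Intact, on the vertical axis. The 1007 genes called higher spread to larger differences than the 83 called lower, and 16900 genes were not called.

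In scaled CPM, the higher genes rose from a sum of 31682 CPM in Intact to 111206 CPM in +MSC-2w, and the lower genes fell from 8528 to 2993 CPM. The 50 genes with the largest gain carried 67.4% of the rise. The 6 with the largest gain were Apoe, Gfap, Clu, Ctsd, Psap and Cst3. Apoe and Clu encode secreted lipid carriers, Gfap the intermediate filament of astrocytes, Ctsd and Psap lysosomal proteins and Cst3 a secreted cathepsin inhibitor. Apoe was at 2805, 2776, 2433 and 2751 CPM in Intact and at 12333, 15622 and 16451 CPM in +MSC-2w, a log2 difference of 2.46 ± 0.23 (SE, adjusted p = 7.99e-08 in edgeR). Clu went from 1140 to 1276 CPM in Intact to 2895, 4158 and 4384 CPM (log2 1.64 ± 0.16), and Cst3 from 2074 to 2341 CPM to 5288, 4022 and 4344 CPM (log2 1.02 ± 0.25). The Cst3 difference lay close to the fold threshold and lost its call when any of the 7 libraries was left out, at log2 values of 0.90 to 1.11.

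The 10 higher genes with the smallest p were Cd68, Gpnmb, Grn, Cd8b, Cebpa, Arl11, Unc93b1, Clec7a, Apobec1 and Nek6. Cd68 and Grn encode lysosomal proteins of macrophages, Clec7a a receptor for fungal glucans, Cebpa a transcription factor of the myeloid lineage and Unc93b1 the chaperone of the endosomal Toll-like receptors. Cd68 stood at 2.4, 3.3, 3.56 and 5.82 CPM in Intact and at 104, 240 and 276 CPM in +MSC-2w, 54.3-fold higher (log2 5.76 ± 0.38, adjusted p = 1.73e-09 in edgeR). Grn rose from 52.6, 80.3, 69.6 and 85.7 CPM to 466, 714 and 808 CPM, 9.19-fold. Cebpa rose from 7.48 to 14.6 CPM to 61, 79.6 and 102 CPM, 7.72-fold. In each of these genes the lowest +MSC-2w library was replicate 1, and it was still several times the highest Intact library.

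Among genes with a mean of at least 10 CPM in +MSC-2w, the largest fold changes belonged to Mmp12, Fcrl2, Cd8b, Gpnmb, Cd68 and Siglec1. Mmp12, the macrophage metalloelastase, had 0, 0, 1 and 2 reads in the Intact libraries and 143, 435 and 331 reads in +MSC-2w. Scaled to total counts this is a ratio of 409, with a 95% exact interval of 140 to 1.99e+03 that covers counting error only, and the fitted log2 value of 8.46 depends on the prior count. Siglec1, a sialic acid receptor of macrophages, was at 0.546, 2.11, 4.39 and 2.36 CPM in Intact and at 36.1, 135 and 151 CPM in +MSC-2w (log2 5.49 ± 0.51). Fcrl2, an Fc receptor-like gene, was at 0.164 to 0.601 CPM and at 19.7, 51 and 53.3 CPM (log2 6.73 ± 0.75). Mmp12, Fcrl2 and Cd8b stayed under 1 CPM in every Intact library and were above 5 CPM in every +MSC-2w library.

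The listed genes of phagocytic macrophages and microglia had the highest median of the 34 lists compared. Of 19 tested, 16 were called higher and none lower, the median log2 difference was 2.87, and all 19 had every +MSC-2w library above every Intact library. Their summed level was 3155 to 3606 CPM in Intact and 15949 to 23291 CPM in +MSC-2w. Gpnmb, a glycoprotein of lipid-laden phagocytes, was at 20.1, 20.8, 24.2 and 36.1 CPM and at 1193, 2282 and 2188 CPM, 74.6-fold higher. Lgals3, the lectin galectin-3, went from 19.8 to 39.3 CPM to 329, 823 and 767 CPM (log2 4.36 ± 0.32). Trem2, a lipid receptor of microglia, and its signalling partner Tyrobp went up by log2 3.46 ± 0.30 and 3.27 ± 0.27. Lpl, Cst7 and Atp6v0d2 were not called, at log2 values of 0.97, 1.32 and 1.96. With the closest +MSC-2w libraries summed, 15 were called. Shares over all genes, to set beside the list counts here and below, were 5.6% called higher and 0.461% called lower. For separation above or below Intact they were 18.8% and 21.3%.

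Lysosomal cathepsins, the proteases that degrade what such cells take up, were higher in 9 of 11 genes with a median log2 difference of 2.00. Ctsd was at 440, 525, 520 and 541 CPM in Intact and at 1983, 3462 and 3511 CPM in +MSC-2w (log2 2.56 ± 0.22, adjusted p = 2.77e-08 in edgeR). Ctsz had the largest difference of the list, 6.9-fold. Ctsf, at log2 0.12, and Ctsk, at log2 1.33, were not called. Ctsk, a collagen-degrading cathepsin, was at 47.9 CPM in Intact replicate 4 and at 2.56 to 19.1 CPM in the other 3, and without that library it was called higher at log2 2.23.

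Complement genes, which tag material for uptake, were higher in 12 of 15 with a median of 2.37. The subunits of C1q moved in parallel, C1qa by log2 3.06 ± 0.30, C1qb by 3.18 ± 0.27 and C1qc by 3.08 ± 0.31. C1qa was at 58, 84.2, 78 and 108 CPM and at 541, 783 and 736 CPM. The complement receptor chains Itgam and Itgb2 rose by log2 2.48 and 3.17. C3, the central component, was at 133 to 250 CPM in Intact and 338, 623 and 674 CPM in +MSC-2w and missed the threshold (log2 1.57 ± 0.54, adjusted p = 0.0438 in edgeR), as did C4b and the C5a receptor gene C5ar1. C4a and C4b are near copies, so their counts are uncertain where reads could be shared.

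Genes that mark microglia in the uninjured cord were higher too, with a smaller median. Of 10 tested, 7 were called higher, with a median of 1.35. Csf1r, the receptor for the survival factor of these cells, went from 143 to 214 CPM to 484, 798 and 822 CPM (log2 1.99 ± 0.22). P2ry12, the purinergic receptor of resting microglia, went from 20.8, 16.1, 24.9 and 27.6 CPM to 53.1, 56.7 and 51.9 CPM (log2 1.27 ± 0.24), and Tmem119 by log2 1.13 ± 0.23. Olfml3 did not change detectably, at log2 0.13 ± 0.45. In P2ry12 and Tmem119 the 3 +MSC-2w libraries lay close together, unlike in the phagocytic sum, in which replicate 1 was the lowest.

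**Figure D2:**
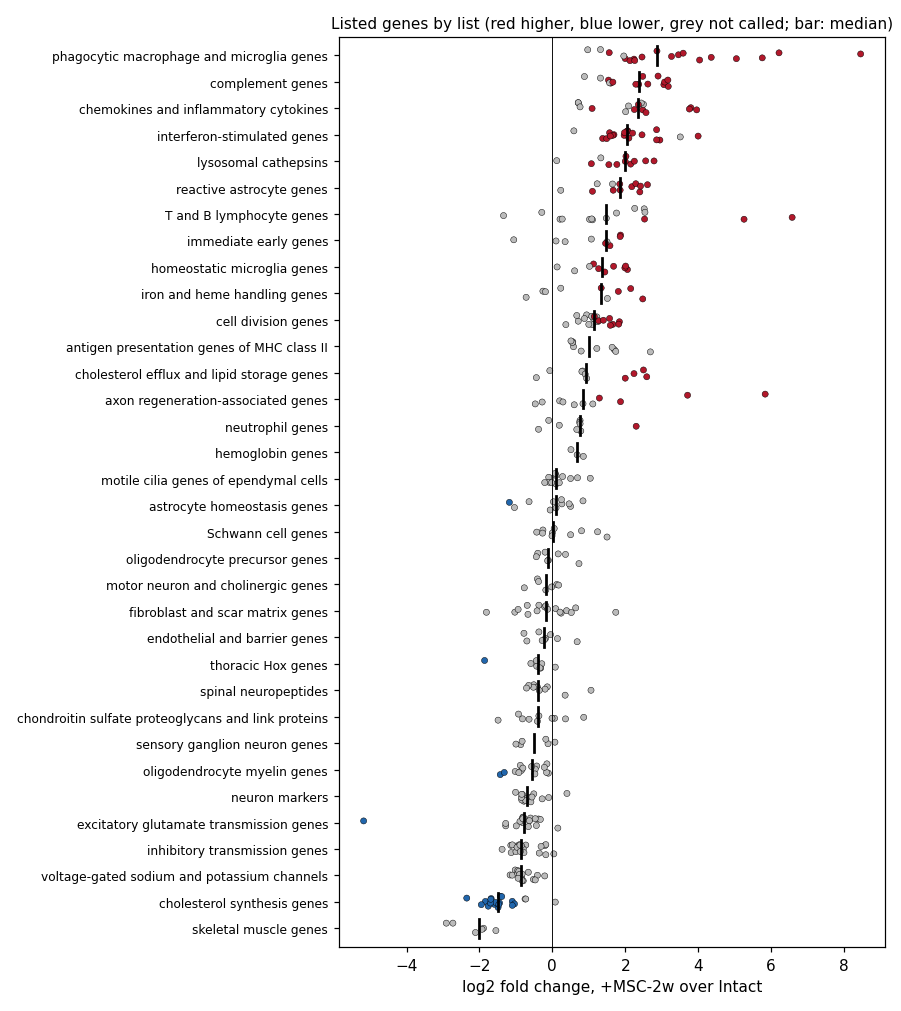
Each point is a listed gene, placed by its log2 fold change, +MSC-2w over Intact, with the lists on the vertical axis and a bar at the median of each. Phagocytic genes had the highest median, 2.87, and cholesterol synthesis genes sat at a median of -1.48, with neuronal lists between -0.18 and -0.87.

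Chemokine and cytokine genes were called higher in 8 of 15, with a median of 2.36, at low levels. Cxcl10 was at 0.764, 1.56, 0.694 and 0.988 CPM in Intact and at 10.7, 18.5 and 18 CPM in +MSC-2w, 15.6-fold higher. Ccl3 and Ccl4, chemokines that attract monocytes, rose by log2 3.80 ± 0.45 and 3.76 ± 0.48 and did not exceed 3.55 CPM in any +MSC-2w library. Tgfb1, a growth factor of repair and scarring, rose from 13.3 to 26.5 CPM to 70.7, 103 and 118 CPM. The inflammatory cytokines Il1b and Il6 were at 0.821 to 1.03 and 0.0514 to 0.334 CPM in +MSC-2w and were not called.

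Of 15 lymphocyte genes, Cd4, Cd8a and Cd8b were called higher, 13 had log2 values above 0 with a median of 1.48, and 8 were separated above Intact. Their summed level was 23.5 to 43.9 CPM in Intact and 142 to 209 CPM in +MSC-2w. In the rat, CD4 and CD8 are also found on macrophages and microglia. Cd8b was at 0.0546, 0.183, 0.0463 and 0.114 CPM in Intact and at 6.77, 12.4 and 11.3 CPM in +MSC-2w (log2 6.58 ± 0.42). The defining T cell receptor chain Cd3e was at 0 to 0.19 CPM in Intact and 0.575 to 0.627 CPM in +MSC-2w and was not called (log2 2.54 ± 0.96), and the B cell gene Ms4a1 overlapped between the groups. Of 9 neutrophil genes only the receptor gene Csf3r was called (log2 2.30 ± 0.32), and the granule genes Mpo, Elane, S100a8 and S100a9 overlapped, with Intact replicate 4 the highest library in S100a8 and S100a9, at 42.3 and 54.8 CPM. None of the 10 genes of MHC class II antigen presentation was called, although all 10 had log2 values above 0, with a median of 1.00. Their summed level was 34.3 to 131 CPM in Intact and 164 to 179 CPM in +MSC-2w. RT1-DMb, a chain of the molecule that loads peptides onto class II, was at log2 2.69 ± 1.26, and without every replicate 1 it was called higher at log2 3.04 (adjusted p = 0.0059 in edgeR). RT1-Ba and RT1-Bb, the chains of a class II molecule, were at 2.3 and 1.46 CPM in +MSC-2w replicate 1 and at 16.4 to 19.7 CPM in replicates 2 and 3.

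Interferon-stimulated genes encode antiviral proteins that cells make after interferon binds its receptor. Of 20 tested, 18 were called higher (median 2.03), and in all 20 the +MSC-2w libraries lay above the Intact libraries. Their summed level was 218 to 386 CPM in Intact and 1087, 1137 and 1143 CPM in +MSC-2w, so that replicate 1 did not stand apart. Mx1, a GTPase that blocks viral replication, was at 2.89, 4.99, 4.02 and 9.46 CPM and at 70.9, 94.9 and 93.3 CPM, 16-fold higher (log2 4.00 ± 0.52, adjusted p = 7.55e-06 in edgeR). Irf7, the transcription factor that amplifies the response, was at 6.38, 18.6, 9.58 and 12.2 CPM and at 84.2, 83.7 and 87.5 CPM (log2 2.86 ± 0.49). Psmb8, a subunit of the immunoproteasome, rose by log2 1.98. Ifit1 missed the threshold at log2 3.51 ± 1.12 (adjusted p = 0.0307 in edgeR), with Intact libraries from 0.0925 to 5.5 CPM, and Stat2 missed the fold threshold at log2 0.59. Against +PBS-2w the list had a median of -0.08 and no called gene.

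Promoters of this list often hold the core of the interferon-stimulated response element. The 250 bases upstream of the start were searched on either strand for GAAA followed by any 2 bases and GAAA. This motif was present in 9 of the 14 listed genes with a matched RefSeq promoter (64.3%). It was in 3.32% of all 24206 promoters and in 2.7% of promoters of genes tested. Among genes called higher, which include members of the list, it was in 9.16% of promoters, and among genes called lower in 0 of 50. A match is a description of the sequence and not evidence of binding. The 100-base windows below are from the RefSeq GRCr8 assembly, which is not the build of the counts, and belong to the 5 called genes of the list with the smallest p that hold the motif, with it in capitals.
Gbp2 (chr2:234005627-234005726, plus strand): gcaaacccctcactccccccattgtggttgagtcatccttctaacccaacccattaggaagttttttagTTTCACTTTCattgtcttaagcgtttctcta
Ifih1 (chr3:67683973-67684072, minus strand): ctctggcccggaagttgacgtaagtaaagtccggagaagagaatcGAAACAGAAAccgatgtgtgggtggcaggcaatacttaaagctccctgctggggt
Ifit3 (chr1:241527226-241527325, plus strand): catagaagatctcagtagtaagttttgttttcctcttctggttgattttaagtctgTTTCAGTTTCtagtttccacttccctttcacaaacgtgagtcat
Bst2 (chr16:18255038-18255137, minus strand): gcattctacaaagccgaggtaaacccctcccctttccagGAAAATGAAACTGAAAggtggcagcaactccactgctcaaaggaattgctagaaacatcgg
Irf7 (chr1:205800038-205800137, minus strand): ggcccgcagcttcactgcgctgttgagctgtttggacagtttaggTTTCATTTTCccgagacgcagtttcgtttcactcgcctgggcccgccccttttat

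The element appears as its reverse complement in Gbp2, Ifit3 and Irf7. Bst2, the surface protein tetherin, holds 2 overlapping copies. Gbp2, a guanylate-binding protein, was at 7.97, 10.7, 9.99 and 12 CPM in Intact and at 41.3, 49.5 and 49.4 CPM in +MSC-2w, and Bst2 at 6.88, 13.3, 8.65 and 13.5 CPM and at 43, 43.1 and 38.7 CPM. Ifih1, the RNA sensor MDA5, and Ifit3 rose by log2 1.66 ± 0.27 and 2.46 ± 0.41. These genes differed little between the 3 +MSC-2w libraries, apart from Ifih1, at 11.6 CPM in replicate 1 against 21.7 and 22.7 CPM.

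Reactive astrocyte genes were higher in 9 of 12, with a median of 1.86. Gfap was at 3868, 5415, 3795 and 4057 CPM in Intact and at 9392, 15253 and 16154 CPM in +MSC-2w, 3.17-fold higher (adjusted p = 0.000157 in edgeR). Vim, a second intermediate filament, was at 89.4, 336, 372 and 304 CPM and at 1078, 1305 and 1372 CPM (log2 2.18 ± 0.32). Timp1, an inhibitor of matrix proteases, and Serping1, an inhibitor of C1, rose by log2 2.61 and 2.42. Lcn2 and Steap4, which mark an acute inflammatory state of astrocytes, overlapped between the groups at log2 1.65 ± 0.75 and 0.23 ± 0.51.

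Genes for the astrocyte's ion and transmitter housekeeping were mostly not called. Of 11 tested, only Gjb6, a gap junction gene, passed the test, lower at 77.7, 89.5, 101 and 84.1 CPM against 53.9, 31.7 and 30.7 CPM (log2 -1.18 ± 0.31). Kcnj10, the potassium channel Kir4.1, was at 209 to 279 CPM in Intact and 95, 121 and 130 CPM in +MSC-2w and missed the threshold by its adjusted p (log2 -1.04 ± 0.28, adjusted p = 0.012 in edgeR). Gja1, the other major gap junction gene, was higher by log2 0.84 ± 0.15, under the fold threshold. The gap junction genes of the list thus had differences of opposite sign. Gjb6 lost its call without any library other than +MSC-2w replicate 1, at log2 -1.04 to -1.21, and with the closest +MSC-2w libraries summed, at log2 -1.05.

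Cholesterol synthesis genes were the largest listed group among the lower calls. Nervous tissue makes its own cholesterol, much of it in myelinating oligodendrocytes, from acetyl-CoA through mevalonate and squalene. Of 20 genes tested, 17 were called lower and none higher, with a median log2 difference of -1.48, where 0.461% of all genes were called lower. These 17 were 20.5% of all lower calls. In 19 of 20 genes every +MSC-2w library lay below every Intact library. The summed level was 5130, 5373, 4448 and 4440 CPM in Intact and 1772, 1534 and 1587 CPM in +MSC-2w. The count of 17 stayed between 15 and 17 in all settings tried.

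The genes ran along the whole path. At its start, Hmgcs1, which makes HMG-CoA, was at 987, 1065, 782 and 787 CPM and at 226, 149 and 159 CPM, 5.09-fold lower (log2 -2.35 ± 0.28, adjusted p = 2.71e-06 in edgeR). Sqle, the squalene epoxidase, was at 223, 224, 195 and 206 CPM and at 74.4, 67.3 and 68.3 CPM, 3.03-fold lower. Msmo1 and Nsdhl, which remove the methyl groups of lanosterol, were lower by log2 -1.70 ± 0.16 and -1.10 ± 0.11. Sc5d, a late step of the path, was at 432 to 477 CPM in Intact and at 159 to 168 CPM in +MSC-2w. Insig1, which retains the sterol sensor in the endoplasmic reticulum, was lower by log2 -1.69.

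The 3 genes not called were Pmvk at log2 -0.75, Ebp at log2 -0.73 and Dhcr7 at log2 0.08. Pmvk and Ebp were separated between the groups and fell short of the fold threshold. Dhcr7, the last reductase of the path, was at 58.9 to 79.3 CPM in Intact and at 29.3 CPM in +MSC-2w replicate 1 against 87.7 and 93.2 CPM in replicates 2 and 3. It was the only member in which replicate 1 and the close pair fell on opposite sides of Intact.

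Outside the list, Scd, Acat2 and Aacs were also among the lower genes that stood out. Scd, a fatty acid desaturase, was at 195, 246, 200 and 210 CPM and at 26.7, 38.6 and 40.7 CPM, 6.03-fold lower. Acat2, which makes the acetoacetyl-CoA used by Hmgcs1, and Aacs, which activates acetoacetate for lipid synthesis, were lower by log2 -1.85 ± 0.18 and -1.69 ± 0.16. Of the 10 lower genes with the smallest p, 7 were members of the list and the others were these 3.

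Promoters of the list often hold a CCAAT box, the site of the factor NF-Y. In the 250 upstream bases, on either strand, CCAAT was present in 12 of 14 listed genes with a matched promoter (85.7%), in 34.4% of all promoters, in 31.8% of promoters of genes called higher and in 29 of 50 promoters of genes called lower (58%). The sterol element spelled TCACNCCAC was found in 0 of the 14 and in 0.958% of all promoters, which says only that these letters are not in this window. The GRCr8 windows below belong to the 5 called members with the smallest p that hold CCAAT, with it, or ATTGG where it lies on the other strand, in capitals.
Msmo1 (chr16:29746956-29747055, plus strand): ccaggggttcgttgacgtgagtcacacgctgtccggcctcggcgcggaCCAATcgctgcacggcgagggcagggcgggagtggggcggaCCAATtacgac
Nsdhl (chrX:155817193-155817292, plus strand): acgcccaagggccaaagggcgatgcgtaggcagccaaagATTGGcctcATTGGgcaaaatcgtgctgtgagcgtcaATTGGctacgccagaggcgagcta
Hsd17b7 (chr13:84722789-84722888, minus strand): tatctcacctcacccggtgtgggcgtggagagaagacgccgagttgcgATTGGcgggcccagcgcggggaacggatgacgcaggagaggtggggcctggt
Insig1 (chr4:8057911-8058010, minus strand): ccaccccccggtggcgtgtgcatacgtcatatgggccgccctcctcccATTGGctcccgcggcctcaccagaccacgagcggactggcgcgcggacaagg
Sc5d (chr8:51538313-51538412, minus strand): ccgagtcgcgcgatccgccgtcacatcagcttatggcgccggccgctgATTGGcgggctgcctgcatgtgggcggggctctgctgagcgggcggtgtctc

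Msmo1 showed 2 copies and Nsdhl 3 within the window. These 5 genes had adjusted p-values from 9.1e-08 to 2.6e-06 in edgeR. Hsd17b7, a ketoreductase of the path, was at 32, 32.3, 29.4 and 31.4 CPM in Intact and at 8.77, 8.13 and 7.4 CPM in +MSC-2w, with no library of either group near the other.

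Genes for moving cholesterol out of cells or storing it gave the other side of sterol handling. Of 10 tested, 4 were called higher and none lower. Abca1, the exporter that loads cholesterol onto Apoe, was at 39.7, 56.3, 51.2 and 83.5 CPM and at 310, 345 and 323 CPM (log2 2.50 ± 0.29, adjusted p = 1.74e-06 in edgeR). Npc2, the lysosomal cholesterol carrier, was 6-fold higher, while Npc1, the membrane protein it hands cholesterol to, was at log2 -0.07 ± 0.18. Soat1, which esterifies cholesterol, and Plin2, which coats lipid droplets, rose by log2 2.00 and 2.24. Abcg1, Nr1h3, Lipa and Mylip were at log2 0.81 to 0.94 and under the fold threshold.

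Of 15 myelin genes tested, Ugt8 and Fa2h were called lower and 13 were not called. The median was -0.57, with 11 genes separated below Intact. Over all genes, 0.461% were called lower and 21.3% were separated in this way. Ugt8 and Fa2h make galactosylceramide, the main glycolipid of myelin, and its hydroxylated form. Ugt8 was at 863, 848, 760 and 899 CPM in Intact and at 324, 312 and 299 CPM in +MSC-2w (log2 -1.43 ± 0.29, adjusted p = 0.00127 in edgeR), and it lost its call without +MSC-2w replicate 3, at log2 -1.40. Mbp, a main structural protein of myelin, was at 31205 to 35084 CPM in Intact and at 18395 to 18828 CPM in +MSC-2w, a log2 value of -0.85 ± 0.28 that was not called. Mobp, another myelin protein gene, was at log2 -1.02 ± 0.29 and missed the p threshold (adjusted p = 0.0166 in edgeR), and DESeq2 on all 26 libraries called it (adjusted p = 0.0039). The 3 +MSC-2w libraries were close together in the summed myelin genes, at 32682 to 33106 CPM. None of 8 oligodendrocyte precursor genes was called, with Cspg4 (NG2) at log2 0.73 ± 0.18.

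**Figure D3:**
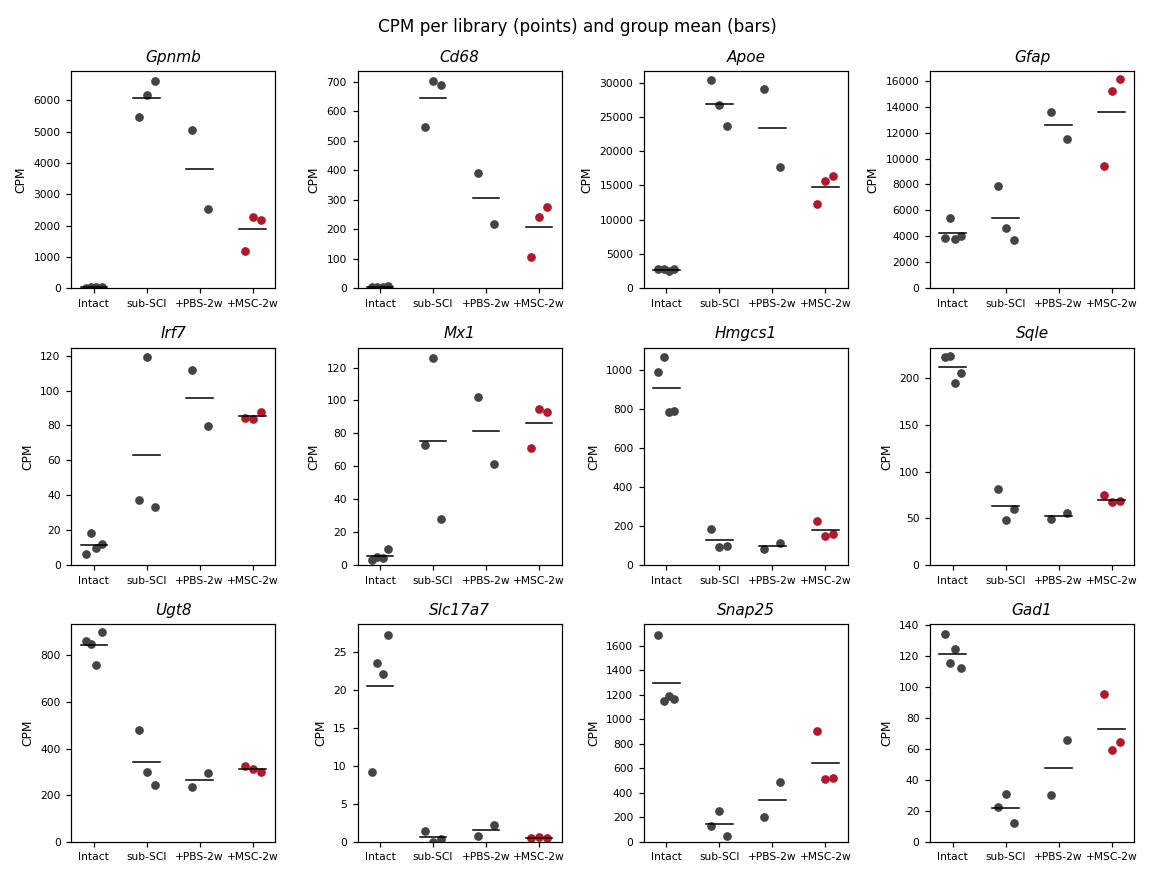
Points are CPM per library for 12 genes in Intact, sub-SCI, +PBS-2w and +MSC-2w, with a bar at each group mean. Cd68 and Gpnmb separated the injured groups from Intact, Hmgcs1 and Sqle lay below Intact in all 3 injured groups, and Snap25 and Gad1 in +MSC-2w lay between Intact and sub-SCI.

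No neuronal list had more than 1 called gene against Intact in the edgeR fit to all libraries, although most values lay below 0. Over all genes tested, 0.461% were called lower, so the small number of calls does not set these lists apart. DESeq2 fitted to the 2 groups called 4 inhibitory, 3 glutamate and 2 channel genes lower. Of 16 neuron markers none was called, the median was -0.70, and 12 had every +MSC-2w library below every Intact library. Over all genes, 21.3% were separated in this way, the share to set beside such counts in the neuronal lists that follow. Snap25, a synaptic vesicle fusion protein, was at 1691, 1149, 1187 and 1169 CPM and at 902, 514 and 522 CPM (log2 -1.01 ± 0.53, adjusted p = 0.198 in edgeR). The neurofilament gene Nefl was at 2976 to 3622 CPM in Intact and at 2757, 1728 and 1836 CPM in +MSC-2w. In both genes +MSC-2w replicate 1 lay nearer to Intact than the close pair did. A missed threshold at this spread, estimated over all 26 libraries, does not show that the levels were alike.

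Genes of inhibitory transmission had a median of -0.87 over 22 tested, 17 of them separated and none called in the edgeR fit to all libraries. Gad1, which makes GABA, was at 134, 115, 124 and 112 CPM and at 95, 59.1 and 64.5 CPM (log2 -0.73 ± 0.43). The GABA-A receptor subunit gene Gabrb2 was at log2 -1.38, the glycine receptor gene Glra1 at -1.14 ± 0.35 (adjusted p = 0.0245 in edgeR), and the chloride exporter gene Slc12a5 (KCC2) at -0.88 ± 0.38. Glra1 was called lower by DESeq2 on all 26 libraries (log2 -1.15, adjusted p = 0.00889), and both Glra1 and Gabrb2 were called by edgeR on the 2 groups, with adjusted p-values of 0.00104 and 0.000967. Gabra2, Gabrb1 and Gabrg1 overlapped with Intact, at log2 0.04, -0.18 and -0.18. Members of this list therefore lay between no detectable difference and a log2 difference of -1.38.

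Of 19 genes of glutamate transmission, Slc17a7 alone was called, lower, and 18 were separated below Intact. Slc17a7, the gene for the vesicular glutamate transporter VGLUT1, was at 9.22, 23.6, 22.1 and 27.3 CPM in Intact and at 0.543, 0.575 and 0.565 CPM in +MSC-2w. The Slc17a7 difference was log2 -5.18 ± 1.07 (adjusted p = 0.00129 in edgeR), and against sub-SCI the gene was at log2 -0.16. Its call was lost without +MSC-2w replicate 2 or 3, at log2 -5.20 and -5.19, and with these libraries summed. Slc17a6, the transporter VGLUT2 of most spinal excitatory neurons, was at 170 to 215 CPM and at 106, 66.4 and 61.9 CPM and was not called (log2 -1.28 ± 0.41, adjusted p = 0.0329 in edgeR), while DESeq2 on all 26 libraries called it (adjusted p = 0.00951). The 2 transporter genes thus differed in size, with Slc17a7 under 1 CPM in all 3 +MSC-2w libraries.

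Of 18 sodium and potassium channel genes 16 were separated below Intact, the median was -0.87 and none was called in the edgeR fit to all libraries. Kcna2, a channel of the juxtaparanode, and Scn2b, a sodium channel subunit, had adjusted p-values of 0.00757 and 0.00536 in edgeR at log2 -0.80 and -0.83, under the fold threshold. Of the neuronal lists, motor neuron genes had the median smallest in size, -0.18 over 7 genes. Chat, which makes acetylcholine, was at 30.2 to 50 CPM in Intact and 30.6 to 39.3 CPM in +MSC-2w. Ache, with the largest difference of this list, was its only member separated below Intact. It was at 184 to 214 CPM in Intact and 105 to 136 CPM in +MSC-2w and was not called (log2 -0.77 ± 0.39). Neuropeptide, sensory ganglion and motile cilia genes had no call. Calca, the gene for the sensory peptide CGRP, was at 115 CPM in +MSC-2w replicate 1 and 27.2 and 28.9 CPM in replicates 2 and 3, against 14.5 to 39 CPM in Intact. Of 8 thoracic Hox genes Hoxa7 was called lower, at 0.154 to 0.292 CPM against 0.456 to 1.05 CPM, a call lost without any library other than Intact replicate 4 and +MSC-2w replicate 1, at log2 -1.64 to -1.90. The sum of the Hox genes was 192 CPM in +MSC-2w replicate 1 against 104 and 105 CPM in the other 2. In Intact, replicate 1 was the highest as well, at 202 CPM against 159 to 166 CPM.

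Matrix genes of the fibrotic scar did not differ detectably from Intact. None of 17 was called and the median was -0.18. Col1a1, the main fibrillar collagen chain, was at 16.2, 140, 209 and 418 CPM in Intact and at 217, 133 and 159 CPM in +MSC-2w. Intact replicate 1 was the lowest in this group of genes, at a sum of 1426 CPM against 2246 to 3289 CPM in the other Intact libraries. Tnc, tenascin-C, was at 7.04 to 16.4 and 24.6 to 38.8 CPM and missed the threshold (log2 1.74 ± 0.49, adjusted p = 0.0151 in edgeR). None of 10 genes for chondroitin sulfate proteoglycans and their link proteins, 9 endothelial genes or 10 Schwann cell genes was called. The perineuronal net genes Acan and Hapln1 were separated below Intact at log2 -0.93 and -1.49. Hapln1 was called lower by edgeR on the 2 groups (log2 -1.45, adjusted p = 0.00191).

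Cell division genes were called higher in 8 of 19, with a median of 1.15 and 18 separated above Intact. Top2a, the topoisomerase of dividing cells, was at 3.38, 5.86, 2.04 and 8.78 CPM and at 15.1, 20.5 and 19 CPM (log2 1.84 ± 0.43, adjusted p = 0.00355 in edgeR). Mki67 was at 22.7 CPM in Intact replicate 4 against 6.15 to 8.98 CPM in the other 3, and at 23.7 to 29.3 CPM in +MSC-2w, and it was called without that library (log2 1.84). Top2a lost its call without Intact replicate 1 or 3 or +MSC-2w replicate 2 or 3, at log2 1.58 to 1.81. The count of calls was 2 without Intact replicate 3, 11 without +MSC-2w replicate 1 and 3 with the closest +MSC-2w libraries summed. Iron and heme genes were higher in 4 of 9, among them the heme oxygenase gene Hmox1 at 13.7 to 19.4 CPM and 46.5, 80.9 and 83.1 CPM.

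Of 11 genes linked to axon regeneration, Atf3, Sprr1a, Gadd45a and Tubb6 were higher. Atf3, an injury-induced transcription factor, was at 1.91, 2.7, 1.39 and 2.09 CPM and at 18.2, 29.1 and 32.4 CPM (log2 3.71 ± 0.38). Sprr1a had 1, 0, 0 and 0 reads in Intact and 7, 28 and 26 reads in +MSC-2w, a ratio of 82.4 with a 95% exact interval of 14.2 to 3.31e+03 for counting error. Gap43, the growth cone protein, was listed with the neuron markers and was the only marker among them separated above Intact, at 111 to 125 CPM and 151 to 156 CPM, without a call (log2 0.40 ± 0.26). Of 9 immediate early genes, Fos, Junb, Egr1 and Ier2 were higher. Arc, a synaptic member of the list, lay the other way, at 7.31, 9.21, 7.59 and 8.59 CPM in Intact and at 4.8, 3.45 and 3.49 CPM in +MSC-2w (log2 -1.06 ± 0.38, adjusted p = 0.0539 in edgeR). Arc was not called there and was called lower by edgeR on the 2 groups (adjusted p = 0.00294). The sum of the list was 384 CPM in +MSC-2w replicate 1 against 186 and 202 CPM, and Egr1 lost its call without that library, at log2 1.17.

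Against +PBS-2w, the comparison that differs by the graft at this time, no gene was called in either direction (0% of 17990) in edgeR, where the smallest adjusted p was 0.159. At an unadjusted p under 0.05, 988 genes were higher in +MSC-2w and 1231 lower. DESeq2 on all libraries called 3 higher and 22 lower, and DESeq2 on these 2 groups called 80 and 340. Among genes lower in +MSC-2w, those with the smallest p included Ier3, Vamp8, Cd300le and Bmp15, at log2 -1.66, -0.89, -4.62 and -3.70. Genes higher in +MSC-2w reached the same smallest adjusted p of 0.159 in edgeR. They included AC120486.2, a pseudogene at 0.514 to 1.17 CPM in +MSC-2w, at log2 7.49 and AABR07065498.1 at log2 0.70. With only 2 libraries in +PBS-2w, the missed threshold does not show that the groups were alike. The SD of the log2 ratio of their counts across genes was 0.47. The study describes a +PBS-2w sample as an outlier that clustered with +MSC-2w. Hmgcs1 stood at log2 0.88 and Gpnmb at -1.01 in this contrast, with adjusted p of 0.299 and 0.312 in edgeR.

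Set beside Intact, +PBS-2w had 1591 genes higher (8.84%) and 1019 lower (5.66%), from the same Intact libraries, so the 2 contrasts are not independent. +MSC-1w, from the same controls, had 1416 higher (7.87%) and 474 lower (2.63%), and +MSC-4w had 1305 (7.25%) and 275 (1.53%). The numbers of libraries and their spread differ between these groups, and the differences between the counts were not tested. Summed phagocytic genes were at 24857 to 41972 CPM in +PBS-2w, and summed neuron markers at 4092 to 7677 CPM. Summed cholesterol synthesis genes were at 962 to 1144 CPM.

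**Figure D4:**
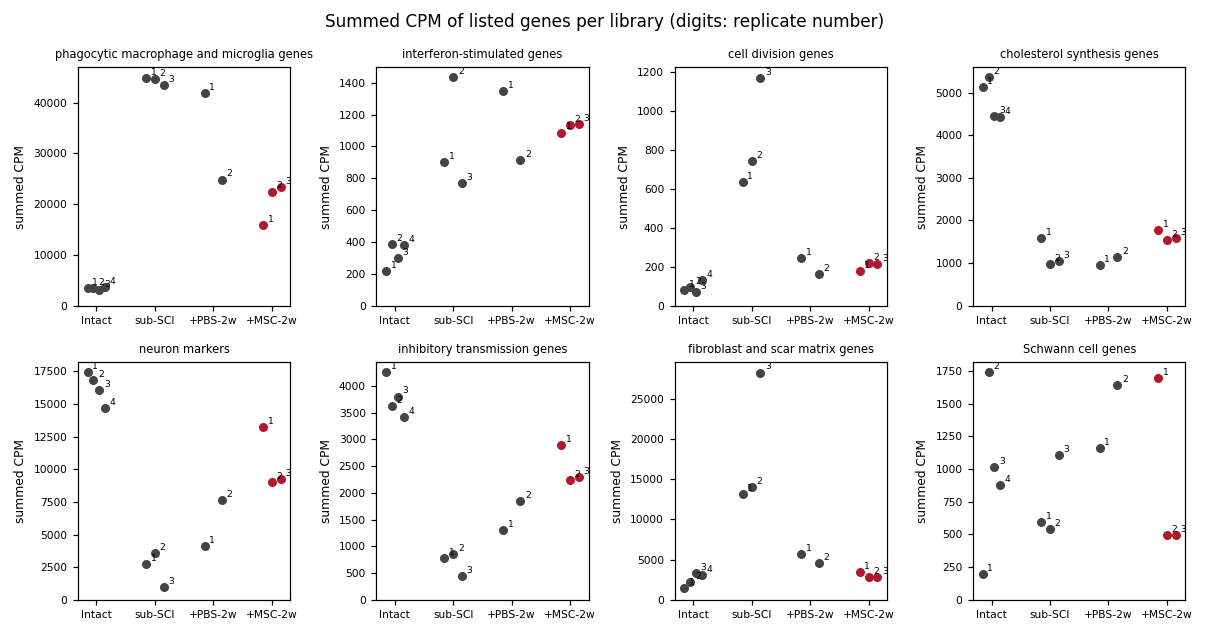
Each panel gives the summed CPM of a gene list per library, each point labelled with its replicate number, in Intact, sub-SCI, +PBS-2w and +MSC-2w. Phagocytic sums in +MSC-2w, 15949 to 23291 CPM, lay between Intact and sub-SCI, as did those in +PBS-2w, 24857 to 41972 CPM. Cholesterol synthesis sums in +MSC-2w, 1534 to 1772 CPM, remained far below the Intact range of 4440 to 5373 CPM.

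Against sub-SCI, the state of the injured cord on the day of transplantation, 1973 genes were higher in +MSC-2w (11%) and 1378 lower (7.66%). This contrast combines time after injury with the graft, and the 2 cannot be told apart in it. Without sub-SCI replicate 3 the higher count was 1225. Neuronal genes made up much of the listed higher calls, with 12 of 16 neuron markers (median log2 1.86) and 20 of 22 inhibitory genes (median 2.26). Glra1 was higher by log2 3.22 and Slc12a5 by log2 2.90. Slc17a7 was an exception at log2 -0.16, not called. Of 11 astrocyte housekeeping genes 8 were higher, among them Slc1a2, the main glutamate transporter, at log2 2.39.

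Scar matrix genes were lower than in sub-SCI in 15 of 17 (median -3.57), with Col1a1 at log2 -4.59 and Postn, periostin, at -5.24. Their summed level was 13200 to 28275 CPM in sub-SCI and 2812 to 3409 CPM in +MSC-2w. Cell division genes were lower in 18 of 19 (median -2.19), while still above Intact as given above. Phagocytic genes had a median of -1.18, with Gpnmb at -1.69 and Cd68 at -1.64, and interferon-stimulated genes a median of -0.11. Cholesterol synthesis genes had a median of 0.26 with 0 called higher and 0 lower. The genes with the smallest p in this contrast included the cathepsin gene Ctsl, lower by log2 -2.26, the membrane rupture gene Ninj1, lower by log2 -2.03, and the glycogen phosphorylase gene Pygb, higher by log2 1.55.

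The order of levels therefore differed between groups of genes. In the phagocytic sum +MSC-2w lay above Intact and below sub-SCI without overlap of the libraries, and in the neuron marker sum it lay below Intact and above sub-SCI. The +PBS-2w libraries had the same order in both sums, at 24857 to 41972 CPM and 4092 to 7677 CPM. In the interferon sum +MSC-2w lay above Intact. In the cholesterol synthesis sum +MSC-2w lay below Intact, with 1534 to 1772 CPM against 976 to 1579 CPM in sub-SCI, where the ranges overlapped. In the scar matrix sum, +MSC-2w at 2812 to 3409 CPM overlapped Intact at 1426 to 3289 CPM. Across the 34 lists, 420 distinct genes were tested, of which 107 were higher and 22 lower than in Intact.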

How the data were processed

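RNA from spinal cord segments was sequenced from poly(A) libraries with paired reads, and the 4 Intact and 3 +MSC-2w libraries of the 26 in the series were compared. Per the labels and the study's methods, the authors trimmed reads (Trim Galore 0.5.0), removed those that mapped to the human genome (GRCh38), mapped the rest to the rat genome Rnor6 (HISAT2 2.1.0, SAMtools 1.9) and deposited raw gene counts (featureCounts 1.6.4). Reads of rat genes that also map to the human genome were lost by that step, which lowers the counts of conserved genes by an amount not known for each gene. The study's discussion describes the share of reads that mapped to the human genome as small. The versions come from the submitters' processing notes. The annotation release and strand setting are not given in the sources used here, so overlapping genes and near copies (C4a and C4b, the RT1 genes, Scd and its paralogs) are uncertain. The joint table equals the files of all 26 libraries, and no 2 libraries are identical.

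The counts of all 26 libraries in 8 groups were fitted together (R 4.3.3, edgeR 4.0.16, limma 3.58.1) with the default expression filter, TMM scaling and a quasi-likelihood test, without a replicate block, and p-values were adjusted by Benjamini and Hochberg over 17990 genes. All 26 libraries share the estimate of spread. The fit was also run on counts simulated from its own model, which does not test how well that model suits these libraries. Standard errors were taken from the fold change and its F statistic. CPM are counts per 1000000 of the scaled library size. Lists are described by counts and medians, with no test of the list. Named genes were those with the smallest p, the largest fold change or change in CPM, chosen members of each list, the largest change in each list, and the genes with the smallest p against +PBS-2w and sub-SCI. The comparison, gene lists and named-gene rule were chosen with earlier results of these data known. Alternatives were DESeq2 1.42.0, fits to 2 groups, other scaling and filters, a replicate block, leaving out each library and, added after the data were seen, summing +MSC-2w replicates 2 and 3. Promoters came from a RefSeq GRCr8 table matched by symbol, with 11153 tested genes matched. Total counts of 19496602 to 26813098 per library left genes under 1 CPM with few reads, and intervals given for reads cover counting error only. Some genes are not reported here.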

Additional observations from a re-analysis of the deposited data

Results flagged for a closer look

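In the Intact group, the only compared group with 4 libraries, 11 of 185 genes had a library whose gap to its nearest neighbor exceeded the 95% critical value for a group of 4, and chance alone gives about 1 in 20. In Intact replicate 1, Vim was at 89.4 against 304 to 372 CPM, Cd44 at 30.3 against 41.7 to 44.1 CPM, Snap25 at 1691 against 1149 to 1187 CPM, Tac1 at 37.4 against 20.1 to 22 CPM and Sprr1a at 0.0546 CPM against 0. In replicate 4, Acta1 was at 160 against 4.21 to 7.19 CPM, Myh7 at 22.8 against 0.491 to 0.879 CPM and Jchain at 9.58 against 1.15 to 1.42 CPM. In replicate 2, Penk was at 98.1 against 118 to 122 CPM and Ctsb at 544 against 569 to 573 CPM. In replicate 3, Apoe was at 2433 against 2751 to 2805 CPM. The part of these libraries in the differences from +MSC-2w was not tested beyond leaving each library out.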

How the results depend on the processing

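The count of higher genes against Intact was 813 to 1089 with each library left out and 821 to 1239 in the other settings. The count of lower genes was 34 to 134 with each library left out, and 177 in DESeq2 on all 26 libraries, 252 in DESeq2 on the 2 groups, 180 in edgeR on the 2 groups, 205 without every replicate 1, 236 at an adjusted p under 0.05 and 31 with +MSC-2w replicates 2 and 3 summed, a setting chosen after seeing the data. The cause was not tested. Of the 83 lower genes, all 83 were also called by DESeq2 on all libraries, 76 by DESeq2 on the 2 groups and 30 with the libraries summed. Higher genes were 92.4% of calls, and 82.4% in DESeq2 on the 2 groups and 83.7% without every replicate 1. Against +PBS-2w, DESeq2 called 3 higher and 22 lower genes on all libraries and 80 and 340 on the 2 groups, where edgeR called 0. Against sub-SCI the higher count was 1225 to 1842 with each library left out. Across genes, deviations from the group means correlated at 0.0882, -0.0931 and 0.0447 between same-numbered libraries of Intact and +MSC-2w. Replicate 1 was the highest library of both groups in summed Hox genes and neuropeptides, and the lowest in summed complement genes. In summed Schwann cell genes it was the lowest in Intact and the highest in +MSC-2w. Whether the numbers mark libraries handled together was not tested. The replicate block gave 1065 higher and 88 lower genes. It called 2 of the 10 genes of MHC class II antigen presentation higher, RT1-DMb among them at log2 2.62 (adjusted p = 0.00199 in edgeR). No named gene changed sign past the threshold. With the closest +MSC-2w libraries summed, 10 named genes lost their call. The DESeq2 and 2-group calls against +PBS-2w rest on 2 vehicle libraries. Genes under 1 CPM rest on few reads, so differences in them are limited by depth.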
